A study of Mus musculus with 8 samples.

Results

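The liver-enriched transcription factors described here are 8 genes, Hnf4a, Foxa1, Foxa2, Foxa3, Cebpa, Cebpb, Onecut1 and Prox1, which were taken by gene symbol from the 17276 genes listed in the data. They were measured by RNA sequencing in 4 libraries of mouse hepatocytes exposed to shear stress, the drag of a moving fluid on a cell surface, and in 4 libraries of hepatocytes kept under static conditions. All 8 libraries came from cells of wild-type male C57BL/6N mice aged 6 to 8 weeks, and no genetic change or other agent is labelled in either group. The strength and duration of the stress and the origin of the replicates (animals, cultures or repeat preparations) are not labelled. A p-value here therefore reflects how far these particular libraries scatter, and that scatter may be technical.

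These factors bind the enhancers and promoters of hepatocyte genes, largely in combination and partly at each other's genes. HNF4A is a nuclear receptor that drives genes of lipoprotein, clotting and drug metabolism. FOXA1, FOXA2 and FOXA3 are forkhead proteins that can open compacted chromatin and are known as pioneer factors. C/EBPα and C/EBPβ are leucine zipper proteins: the α form is linked to mature metabolism and growth arrest, the β form to the acute phase response and regeneration. ONECUT1, also called HNF6, acts in biliary and hepatic development, and PROX1 is a homeodomain protein that is needed for hepatoblast migration and restrains HNF4A activity.

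Within the FOXA family the balance of transcripts differed between the groups: Foxa1 and Foxa2 were lower under shear stress and Foxa3 was higher, while the summed FOXA level, in TPM, overlapped between the groups. With TMM factors, Foxa1 fell 2.69-fold, Foxa2 fell 1.6-fold and Foxa3 rose 1.63-fold. Cebpb fell 1.84-fold. Hnf4a did not pass the edgeR test with TMM factors on all libraries, with or without the replicate number as a block. In that fit Cebpa and Prox1 passed with the block and not without it. Cebpa, Prox1 and Hnf4a each also passed in some of the other settings given below. Onecut1 had too few counts to be tested.

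Libraries held between 16225843 and 16732203 estimated counts under shear stress and between 15067056 and 17935566 in static culture. Each change below is a log2 fold change, shear stress relative to static, with its standard error (SE), from counts scaled by TMM factors (trimmed mean of M-values) and tested with the quasi-likelihood test of edgeR. A gene was called at a Benjamini-Hochberg adjusted p below 0.05 over the 11747 genes that had enough counts, among them 7 of the 8 factors. Calls were common: 48.6% of tested genes were called, 24.9% as higher and 23.7% as lower. The direction of small changes depended on the scaling. The median log2 fold change of all tested genes was -0.01 with TMM factors, 0.13 with upper quartile factors and 0.22 with library totals, and the numbers called higher and lower were 2924 and 2783, 3652 and 1982, and 4157 and 1539. Levels are given in TPM, a unit that scales counts for transcript length and library total and so can be compared between genes. TPM carries no TMM correction, and group differences in TPM lie above those in TMM-scaled counts.

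The libraries carried hepatocyte transcripts. The 10 hepatocyte markers summed to between 44500 and 60000 TPM under shear stress and between 57600 and 69900 TPM in static culture, and 8 of them were called lower with TMM scaling. That number was 4 under upper quartile factors, 3 when scaled to library totals, 2 on the log2(TPM + 1) scale and 10 with the replicate block. Among markers of other cells, the macrophage genes Adgre1, Clec4f and Csf1r reached at most 0.15, 0.11 and 0.09 TPM, the stellate cell gene Lrat 0.04 TPM, the endothelial gene Stab2 0.27 TPM and the biliary gene Krt19 0.43 TPM. Other members of these lists were higher and changed. Itgam, an integrin gene of myeloid cells, was at 0 to 0.06 TPM under shear stress and 1.23 to 2.87 TPM in static culture (adjusted p = 7.19e-05). Pecam1, an endothelial adhesion gene, was at 0.55 to 1.77 TPM under shear stress and 2.28 to 5.74 TPM in static culture (-2.42 ± 0.48, adjusted p = 0.00324). Of the other marker lists, the 6 biliary genes in the data summed to 263 to 1970 TPM under shear stress and 100 to 1320 TPM in static culture, nearly all from Spp1, and 1 of 4 tested was called higher (3 with the replicate block). The 9 endothelial genes summed to 4.33 to 9.63 TPM and 4.77 to 9.73 TPM in the same order (of 6 tested, 1 was called higher and 1 lower, with or without the block). The 9 stellate genes summed to 2.55 to 3.99 TPM under shear stress and 1.99 to 6.5 TPM in static culture, with 0 of 2 tested called by edgeR (0 at an unadjusted p below 0.05) and 1 called lower with the block. The 9 myeloid genes summed to 248 to 364 TPM under shear stress and 272 to 398 TPM in static culture, with 1 of 3 tested called lower (2 with the block). The 5 lymphoid genes moved most with the groups: they summed to 0.14 to 1.25 TPM under shear stress and 11.4 to 15.6 TPM in static culture, mainly from Cd79b, and both tested genes were called lower, with or without the block. The part of these cell types in the results below was not tested. In these mixed RNA samples, fewer cells of a type and less RNA per cell cannot be told apart.

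In the order of levels, Hnf4a and Cebpb led under shear stress, with means of 63.2 ± 6.47 TPM and 61.5 ± 12.5 TPM (SD, n = 4), and their ranges overlapped. In static culture Cebpb led with 97.0 ± 10.6 TPM, above Cebpa with 49.8 ± 11.6 TPM and Hnf4a with 48.6 ± 10.6 TPM, a pair that did not differ beyond its spread. The FOXA genes and Prox1 stood between 4.75 ± 0.724 TPM for Foxa1 and 19.5 ± 1.57 TPM for Foxa3 under shear stress, and between 5.46 ± 2.10 TPM for Prox1 and 16.8 ± 3.93 TPM for Foxa2 in static culture. Foxa3 was the first of the 3 FOXA genes in all 4 shear stress libraries and Foxa2 the first in all 4 static libraries. Onecut1 was last in both groups. Static replicate 3 had the highest static level of 6 of the 8 genes, both in TPM and in normalised CPM (counts scaled to library size with TMM factors). It also had the lowest total count and the lowest TMM factor, 0.876. The part of these values in the results was not tested, and results that turn on this library are given without it.

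**Figure D1:**
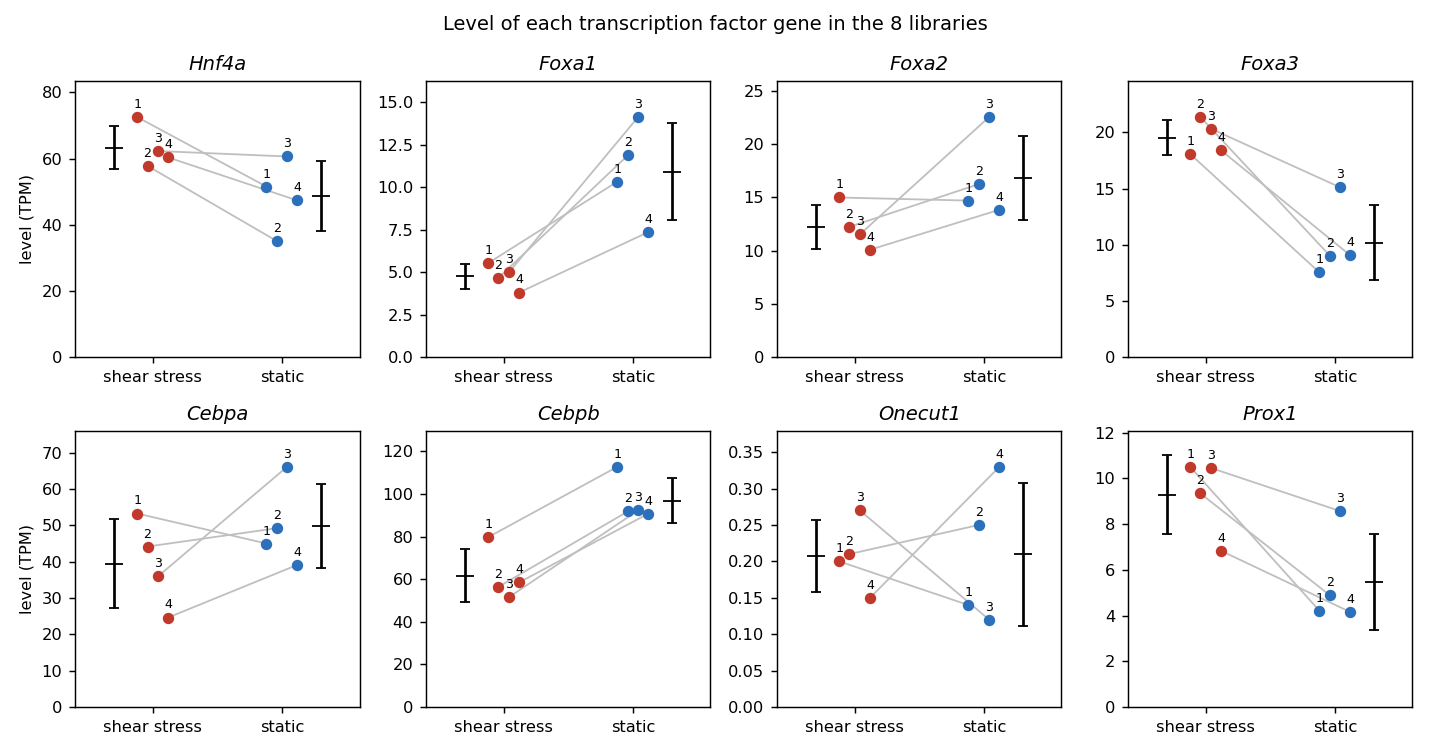
Level in TPM of each of the 8 genes (vertical axes start at 0 and differ between panels) in shear stress (red) and static (blue) libraries. Numbers are replicate numbers, grey lines join libraries of the same number, and black bars are the mean ± SD (n = 4). For Foxa1 and Cebpb all shear stress points lie below all static points, for Foxa3 they lie above, and the Onecut1 panel spans only 0.12 to 0.33 TPM.

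Foxa1 (Gene ID 15375; GRCm38 chromosome 12, 57540628 to 57548029) encodes the FOXA protein best known in liver, prostate and breast. It was at 5.54, 4.67, 4.99 and 3.81 TPM in shear stress replicates 1 to 4 and at 10.34, 11.88, 14.14 and 7.37 TPM in static replicates 1 to 4. The highest shear stress library lay below the lowest static one. The log2 fold change was -1.43 ± 0.21 (adjusted p = 0.000566), and it was called in all 21 alternative settings, between -1.57 and -1.03. Foxa2 (Gene ID 15376; chromosome 2, 148042877 to 148046969), which acts in bile acid and fasting metabolism, was at 14.99, 12.24, 11.52 and 10.09 TPM under shear stress and at 14.7, 16.24, 22.54 and 13.84 TPM in static culture. In TPM the groups overlapped, through shear stress replicate 1, whereas in normalised CPM they did not: 20, 14.4, 14.2 and 13.1 CPM under shear stress against 22.4, 21.8, 34.0 and 20.8 CPM in static culture. The change was -0.68 ± 0.19 (adjusted p = 0.0163). It was called in 17 of the 21 alternatives. The call was lost without shear stress replicate 4 (adjusted p = 0.0505) and with library totals (0.0617). It was also lost with limma on log2(TPM + 1) (0.0634) and log2(TPM + 0.1) (0.0635).

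Foxa3 (Gene ID 15377; chromosome 7, 19013283 to 19023539), the FOXA gene that is most abundant in adult liver, moved the other way. It was at 18.08, 21.36, 20.33 and 18.39 TPM in shear stress libraries and at 7.54, 9.04, 15.11 and 9.05 TPM in static libraries. The groups did not overlap, but static replicate 3 came close: in normalised CPM it reached 22.4, against a lowest shear stress value of 23.4. The coefficient of variation in normalised CPM was 2.04% in shear stress libraries and 35.3% in static libraries. At 408 to 464 estimated counts per shear stress library, counting error alone can exceed 2.04%, so the closeness of these libraries is not read further. The static spread came largely from replicate 3, since the other static libraries lay between 11.3 and 13.3 CPM. The log2 fold change was 0.71 ± 0.20 (adjusted p = 0.0175), called in all 21 alternatives between 0.60 and 0.98, and it was 0.97 without static replicate 3 (adjusted p = 0.00034).

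Shares within a family do not depend on the scaling between libraries. Foxa1 made up 14.3%, 12.2%, 13.5% and 11.8% of the summed TPM of Foxa1, Foxa2 and Foxa3 in shear stress replicates 1 to 4, and 31.7%, 32%, 27.3% and 24.4% in static replicates 1 to 4. Foxa3 made up 46.8%, 55.8%, 55.2% and 57.0% under shear stress and 23.1%, 24.3%, 29.2% and 29.9% in static culture. Foxa2 took 33.3% ± 3.67 under shear stress and 44.5% ± 1.07 in static culture (SD, n = 4). The summed FOXA level was 38.61, 38.27, 36.84 and 32.29 TPM in shear stress replicates 1 to 4 and 32.58, 37.16, 51.79 and 30.26 TPM in static replicates 1 to 4. These sums carry no TMM correction. On log2(TPM + 1) the median log2 fold change of all genes tested on that scale was 0.19, against -0.01 with TMM factors. In TPM the summed level was higher under shear stress in 3 of the 4 replicate numbers, number 3 being the exception. Whether this holds with TMM factors was not tested. The mean of the summed level was 36.5 ± 2.91 TPM under shear stress and 37.9 ± 9.66 TPM in static culture (SD, n = 4). It was 33.3 ± 3.51 TPM in static culture without replicate 3 (SD, n = 3), an alternative chosen after the values were seen. Foxa3 was between 3.26 and 4.83 times as abundant as Foxa1 in shear stress libraries, and between 0.729 and 1.23 times in static libraries, static replicate 3 included at 1.07.

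**Figure D2:**
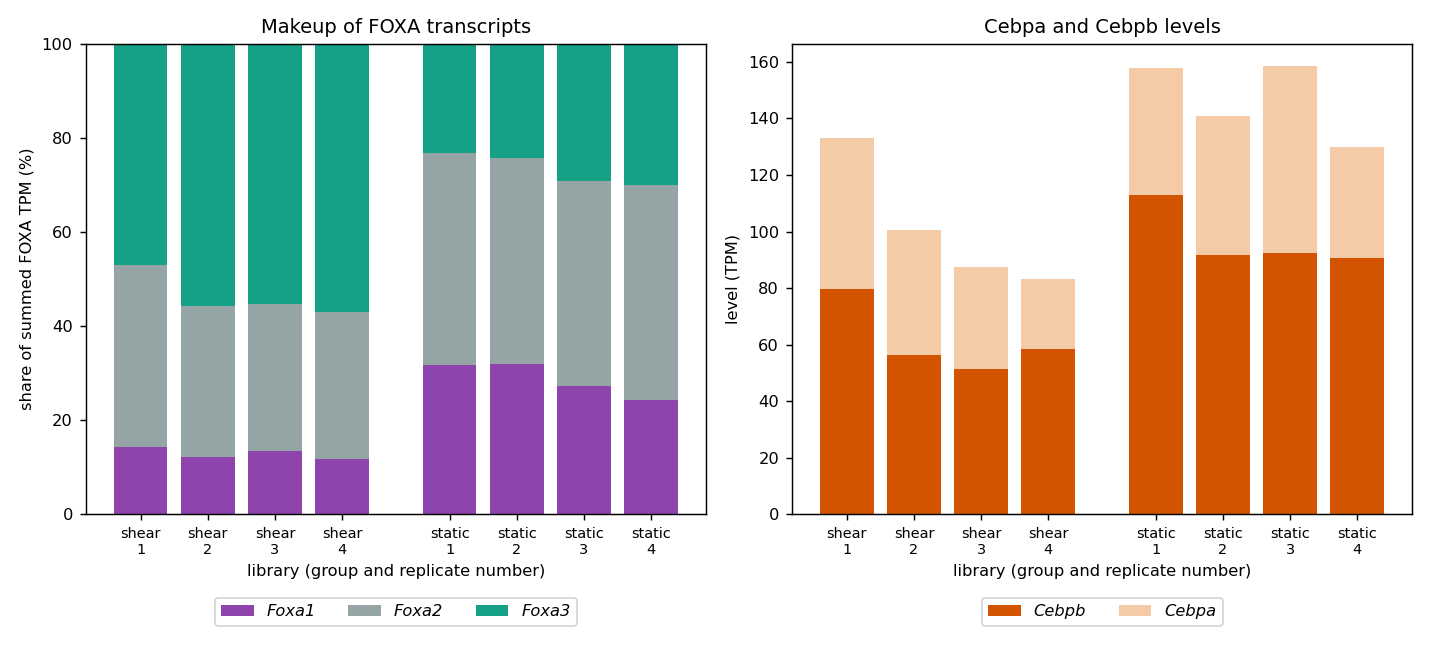
Left, share (%) of Foxa1, Foxa2 and Foxa3 in their summed TPM in each library; right, stacked levels (TPM) of Cebpb and Cebpa in each library. Foxa3 is the largest share in all 4 shear stress libraries and Foxa2 in all 4 static libraries, and Cebpb makes the lower part of each right-hand bar.

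The 3 FOXA genes have promoter windows of different makeup, and these are shown because the genes changed in different directions. The windows run from 250 bases before to 50 bases after a RefSeq transcription start (GRCm38.p6), all on the minus strand, at chr12:57546062-57546361 for Foxa1, chr2:148046920-148047219 for Foxa2 (the most upstream of its 3 windows) and chr7:19023490-19023789 for Foxa3. The Foxa1 window lies wholly inside the annotated gene span given above, whereas those of Foxa2 and Foxa3 reach upstream of theirs. Capitals mark matches, on either strand, to TGTTTAC (bound by FOXA proteins), ATTGAT (bound by ONECUT proteins), TGACG (a half-site of the cAMP response element) or TATAAA (the TATA box).
Foxa1: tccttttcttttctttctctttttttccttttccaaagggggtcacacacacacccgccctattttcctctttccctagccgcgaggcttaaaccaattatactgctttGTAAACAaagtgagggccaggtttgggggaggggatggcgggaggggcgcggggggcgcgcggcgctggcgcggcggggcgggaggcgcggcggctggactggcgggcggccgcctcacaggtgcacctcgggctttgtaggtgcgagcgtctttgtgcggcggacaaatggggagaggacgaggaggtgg
Foxa2: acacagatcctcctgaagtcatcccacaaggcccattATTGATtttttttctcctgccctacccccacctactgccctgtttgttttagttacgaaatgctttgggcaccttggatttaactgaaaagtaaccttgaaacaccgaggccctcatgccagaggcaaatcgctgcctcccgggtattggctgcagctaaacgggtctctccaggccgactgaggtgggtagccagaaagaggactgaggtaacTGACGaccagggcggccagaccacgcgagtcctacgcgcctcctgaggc
Foxa3: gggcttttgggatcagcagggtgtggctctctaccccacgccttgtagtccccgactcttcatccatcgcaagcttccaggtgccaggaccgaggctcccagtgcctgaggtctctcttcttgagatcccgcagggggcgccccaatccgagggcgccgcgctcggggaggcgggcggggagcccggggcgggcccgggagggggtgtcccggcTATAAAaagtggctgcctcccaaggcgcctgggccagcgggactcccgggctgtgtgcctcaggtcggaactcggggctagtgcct
The Foxa1 window held a FOXA match at position 110, counted from 1 at the 5′ end of the window, and 3.65% of all 32851 RefSeq windows of this length hold one. The Foxa2 window held an ONECUT match at position 38 (7.54% of windows) and a TGACG match at position 252 (20.8%). The Foxa3 window held a TATA match at position 215 (13.6%). A Foxa2 window that is not printed also held TATAAA, at position 43 on the other strand. The share of G and C was 69.0% in the Foxa3 window, 62.3% in the Foxa1 window and 54.3% in the printed Foxa2 window. It was 64% and 51.7% in the Foxa2 windows not printed, against a median of 52.7% over all windows. None of the 12 windows of the 8 genes held CAAAGTCCA (HNF4), TTGCNNAA (C/EBP), TGANTCA (AP-1) or the palindromic HNF1 motif, which 0.475%, 10.8%, 7.81% and 0.00913% of all windows hold. CCAAT (37.4% of windows) and GGGCGG (the GC box, 35.7%) were also searched, were present in all 3 printed FOXA windows, and are left in lower case. No capitalised matches overlap each other. They were chosen with the sequences at hand, and a match is a description of letters only.

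Cebpb (Gene ID 12608; chromosome 2, 167688915 to 167690432), the C/EBP gene induced by cytokines and in regeneration, was lower in every shear stress library. It was at 79.72, 56.42, 51.52 and 58.49 TPM under shear stress and at 112.82, 91.81, 92.33 and 90.84 TPM in static culture. Shear stress replicate 1 and static replicate 1 were the highest of their groups, and the groups did not overlap. The log2 fold change was -0.88 ± 0.18 (adjusted p = 0.00321), called in all 21 alternatives between -1.04 and -0.65. Within the 4 replicate numbers the difference in normalised log2 CPM was -0.69, -0.91, -1.14 and -0.84. The annotated span of Cebpb overlaps Tmem189 on the other strand, and reads of both cannot be told apart without the strand setting. Tmem189 was at 44.8 ± 16 CPM under shear stress and 34.5 ± 11.8 CPM in static culture (0.38 ± 0.33, adjusted p = 0.371), and with the replicate block it was called higher (adjusted p = 0.00587).

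The Cebpb window, on the plus strand at chr2:167688665-167688964, is shown because its TGACG matches are the most of any of the 12 windows. Capitals mark TGACG on either strand and TATAAA.
Cebpb: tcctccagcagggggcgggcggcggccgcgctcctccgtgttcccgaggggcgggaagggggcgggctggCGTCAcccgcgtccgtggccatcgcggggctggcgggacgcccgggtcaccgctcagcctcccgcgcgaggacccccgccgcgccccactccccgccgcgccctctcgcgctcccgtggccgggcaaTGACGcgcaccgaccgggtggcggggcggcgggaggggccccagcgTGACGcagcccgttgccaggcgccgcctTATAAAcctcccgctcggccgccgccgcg
It held TGACG matches at positions 71, 198 and 244 and a TATAAA match at position 272, and 80.7% of its bases were G or C. The TATAAA match lies after the transcription start and is named by its letters only.

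Cebpa (Gene ID 12606; chromosome 7, 35119293 to 35121928), the C/EBP gene of quiescent hepatocytes, was at 53.22, 44.13, 35.89 and 24.6 TPM in shear stress replicates 1 to 4 and at 44.96, 49.18, 66.09 and 39.1 TPM in static replicates 1 to 4. The groups overlapped, and replicate 1 was the number whose shear stress library was the higher of the pair. The log2 fold change was -0.57 ± 0.25 (adjusted p = 0.0854). With the replicate number as a block it was -0.59 ± 0.19 (adjusted p = 0.0246), but this call was lost without number 3 (0.0665) or 4 (0.104) and with library totals (0.109). Without the block, the gene was called when shear stress replicate 1 was left out (adjusted p = 0.0213). Cebpb was 1.65 ± 0.495 times as abundant as Cebpa in TPM under shear stress and 2.02 ± 0.496 times in static culture (SD, n = 4), a difference smaller than the spread. Summed Cebpa and Cebpb levels were 101 ± 22.6 TPM under shear stress and 147 ± 13.8 TPM in static culture. Both genes are also expressed in myeloid cells, and Itgam of the myeloid list, given above, was lower under shear stress, as Cebpb was. Of the same list, Cd14 (187.02 to 284.74 TPM under shear stress, 207.99 to 347.11 TPM in static culture) and Cd68 (24.54 to 78.01 TPM and 26.69 to 68.07 TPM in the same order) carried nearly all of the sum. With the block, Cd14 was called lower too (-0.44 ± 0.07, adjusted p = 0.000531). The part of myeloid cells in the Cebpb and Cebpa levels was not tested.

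Hnf4a (Gene ID 15378; chromosome 2, 163506811 to 163572907) was at 72.53, 57.78, 62.27 and 60.33 TPM under shear stress and at 51.53, 35.09, 60.62 and 47.33 TPM in static culture. Static replicate 2 was the lowest library, and static replicate 3 lay within the shear stress range. The TMM-scaled change was 0.13 ± 0.19 (adjusted p = 0.59), with the replicate block 0.16 ± 0.11 (adjusted p = 0.24). The gene was called in 2 of 21 alternatives, the block with library totals (0.39, adjusted p = 0.0134) and the block without number 3 (0.31, adjusted p = 0.0167), and the change was -0.03 without static replicate 2. RefSeq gives Hnf4a starts at both of its known promoters, and the counts per gene do not separate transcripts of one from the other.

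Prox1 (Gene ID 19130; chromosome 1, 190118035 to 190170827) was at 10.51, 9.34, 10.46 and 6.83 TPM in shear stress libraries and at 4.21, 4.89, 8.57 and 4.15 TPM in static libraries. The groups overlapped through static replicate 3, which held 8.57 TPM, against 6.83 TPM in shear stress replicate 4. The log2 fold change was 0.54 ± 0.26 (adjusted p = 0.107), and with the replicate block it was 0.59 ± 0.16 (adjusted p = 0.012). The blocked call held when each number was left out in turn (adjusted p between 0.000922 and 0.0395). Without the block, the gene was called without static replicate 3 (0.87, adjusted p = 0.00296), with upper quartile factors (adjusted p = 0.0434) and with library totals (adjusted p = 0.0197). Limma also called it on log2(TPM + 1) (adjusted p = 0.0186) and log2(TPM + 0.1) (adjusted p = 0.0191). Prox1 also marks lymphatic endothelium. Of the markers of that cell type, Pdpn reached 0.15 TPM at most. Lyve1 reached 1.94 TPM and was not called (0.385 ± 0.687, adjusted p = 0.669). Flt4 rose to 2.22 ± 0.566 TPM under shear stress, against 0.78 ± 0.281 TPM in static culture (1.26 ± 0.27, adjusted p = 0.00439). Pecam1, of the same endothelial list, was lower under shear stress, as given above. The part of Flt4-expressing cells in the Prox1 level was not tested.

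Onecut1 (Gene ID 15379; chromosome 9, 74861921 to 74889648) was near the limit of detection. It had 4, 4, 5 and 3 estimated counts in shear stress replicates 1 to 4 and 3, 5, 2 and 7 in static replicates 1 to 4, which is between 0.15 and 0.27 TPM under shear stress and between 0.12 and 0.33 TPM in static culture. The summed counts were 16 and 17, and the ratio of shear stress to static after scaling was 0.834, with an exact 95% interval of 0.394 to 1.75 that covers counting error only. These counts do not separate the ratios within this interval from each other. Its paralog Onecut2 was higher, at 13.1 ± 1.95 TPM under shear stress and 7.98 ± 1.30 TPM in static culture (0.61 ± 0.17, adjusted p = 0.0134). It was singled out after its value was seen.

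Of the 8 genes, 3 were called lower and 1 higher. Those 4 calls are 57.1% of the 7 tested factors, against 48.6% of all tested genes (23.7% lower, 24.9% higher), a share near the background of this comparison. With the replicate block 4 were called lower and 2 higher, against 61.1% of all tested genes called (31% lower, 30.1% higher). With library totals 2 were called lower and 2 higher, against 48.5% of all tested genes (13.1% lower, 35.4% higher). In normalised CPM the groups did not overlap for 4 of the 8, 1 of them higher and 3 lower under shear stress, against 45.3% of all tested genes (23.7% higher, 21.5% lower). In TPM they did not overlap for 3 of the 8, against 42.8% (32.2% higher, 10.6% lower). The direction was the same in all 4 replicate numbers for 4 of the 8, against 68.9% (33.7% higher, 35.2% lower).

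**Figure D3:**
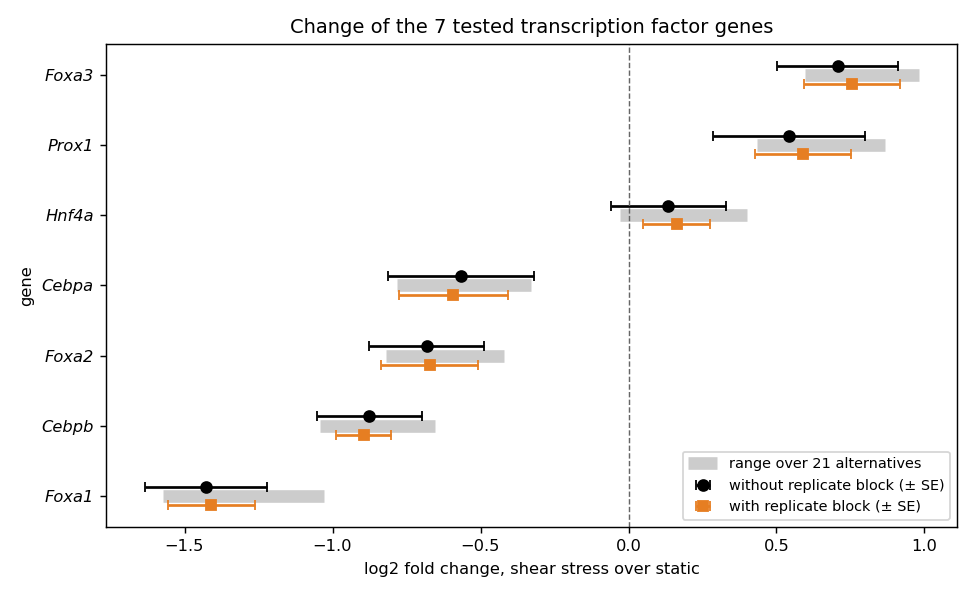
Log2 fold change of shear stress over static (horizontal axis) of the 7 tested genes, without (black circles) and with (orange squares) the replicate number as a block; bars are ± SE, and grey bands span the 21 alternative settings. Foxa3 and Prox1 lie above 0 and Foxa1, Cebpb, Foxa2 and Cebpa below 0 in every setting, and the Hnf4a band crosses 0.

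Other factors of the liver network, a list of 26 genes written for comparison, moved in both directions. Of 23 tested, 9 rose, 4 fell and 10 were not called, with a median log2 fold change of -0.09, against -0.01 for all tested genes. The calls are 56.5% of the tested genes of this list, against 48.6% of all tested genes (24.9% higher, 23.7% lower). The replicate block called 10 of the list higher and 5 lower, against 30.1% and 31% of all tested genes. With library totals 11 rose and 2 fell, against 35.4% and 13.1% of all tested genes. The list median was then 0.13, against 0.22 for all tested genes. Nuclear receptor genes were on both sides. Nr5a2, an orphan receptor of bile acid and cholesterol genes, rose to 26.7 ± 6.44 CPM under shear stress, against 14.0 ± 3.26 CPM in static culture (0.93 ± 0.21, adjusted p = 0.00584). Nr2f2, which encodes COUP-TFII, a factor that can compete for HNF4A sites, was at 6.32 ± 0.852 CPM under shear stress and 3.36 ± 0.474 CPM in static culture (0.91 ± 0.18, adjusted p = 0.00313). Rxra, the shared partner of many nuclear receptors, fell to 98.6 ± 8.98 CPM under shear stress, against 143 ± 13.4 CPM in static culture (-0.54 ± 0.10, adjusted p = 0.00224), a call that was lost on the log2 TPM scale.

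With TMM factors, relatives of Cebpa and Cebpb fell where they were called. Of 8 tested genes of the C/EBP and PAR bZIP families, 5 fell and 3 were not called, with a median of -0.61. The calls are 62.5% of the 8, against 48.6% of all tested genes (23.7% lower). With library totals 4 fell and 1 rose. The circadian PAR bZIP gene Tef fell 2.15-fold to 70.1 ± 18.9 CPM and Dbp fell 3.96-fold to 1.41 ± 0.588 CPM. Cebpg, which encodes a C/EBP partner without an activation domain, fell 1.55-fold to 71.5 ± 10.2 CPM, and Nfil3, a repressor of PAR bZIP targets, fell 1.84-fold to 45.3 ± 10.6 CPM. Cebpd, a further C/EBP gene of the acute phase, was at 5.44 ± 1.57 CPM under shear stress and 5.75 ± 1.22 CPM in static culture (adjusted p = 0.796). Of 13 tested coregulators, 3 rose, 6 fell and 4 were not called. The calls are 69.2% of the 13, against 48.6% of all tested genes. With the replicate block 4 rose and 6 fell, against 30.1% and 31% of all tested genes. The median of the coregulators was -0.13 with TMM factors and 0.10 with library totals. The acetyltransferase genes Crebbp and Ep300 fell 2.22-fold and 1.98-fold, and the corepressor gene Ncor1 fell 1.71-fold. Trib3, a stress-induced pseudokinase gene, rose 2.51-fold to 124 ± 12.9 CPM. Trib1, a pseudokinase gene whose product directs C/EBPα to degradation, fell 1.73-fold to 67.6 ± 10.5 CPM, and was singled out after its value was seen.

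Known target genes of the factors were lower more often than higher in their lists, which hold 61 genes in all, 12 of them in more than 1 list. Of 30 tested HNF4A targets, 12 fell, 1 rose and 17 were not called (median -0.49). Of 18 tested FOXA targets, 9 fell and 9 were not called (median -0.56), and of 25 tested C/EBP targets, 8 fell and 17 were not called (median -0.57). Those calls are 43.3%, 50% and 32% of the lists in this order, against 48.6% of all tested genes (23.7% lower, 24.9% higher). The blocked fit called 22, 12 and 20 of the targets lower and 4, 1 and 1 higher, against 31% and 30.1% of all tested genes. With library totals 13.1% of all tested genes were called lower and 35.4% higher. Of the targets, 4, 3 and 4 were then called lower and 3, 1 and 1 higher. Their medians were -0.26, -0.34 and -0.34, against 0.22 for all tested genes. Single libraries moved these counts: the HNF4A targets called lower were 5 without shear stress replicate 2, 6 without shear stress replicate 4 or static replicate 3 and 7 without static replicate 1, the FOXA targets 5 without shear stress replicate 2 or 4 or static replicate 3, and the C/EBP targets 5 without static replicate 3. Removal of static replicate 3 also gave 2 HNF4A targets, 1 FOXA target and 1 C/EBP target called higher, and removal of static replicate 4 gave 2 HNF4A targets.

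Among these targets, Otc, a urea cycle gene, fell 1.67-fold to 67.0 ± 11.2 CPM, and F9, the clotting factor IX gene, fell 1.55-fold to 88.1 ± 13 CPM. Ttr, the transthyretin gene on which FOXA proteins were first described, fell 1.49-fold to 2340 ± 253 CPM, and the complement gene C3 fell 1.65-fold to 4980 ± 591 CPM. Cyp8b1, the sterol 12-alpha-hydroxylase gene of bile acid synthesis, was the HNF4A target that rose, to 26.6 ± 4.03 CPM under shear stress, against 8.42 ± 4.4 CPM in static culture (1.66 ± 0.32, adjusted p = 0.00299). Slc38a2, an amino acid transporter gene in the FOXA list, had the largest change of the 3 lists: it fell 7.58-fold to 178 ± 11.5 CPM under shear stress, against 1350 ± 52.1 CPM in static culture. Apob and Alb, the apolipoprotein B and albumin genes, fell 1.57-fold and 1.49-fold. The calls of F9 and Alb were lost on the log2 TPM scale, and that of Alb also with library totals. Alb, Ttr, Apob, Apoa1, Cps1 and Tat are both in these lists and among the hepatocyte markers, and the part of any 1 factor in their change was not tested.

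**Figure D4:**
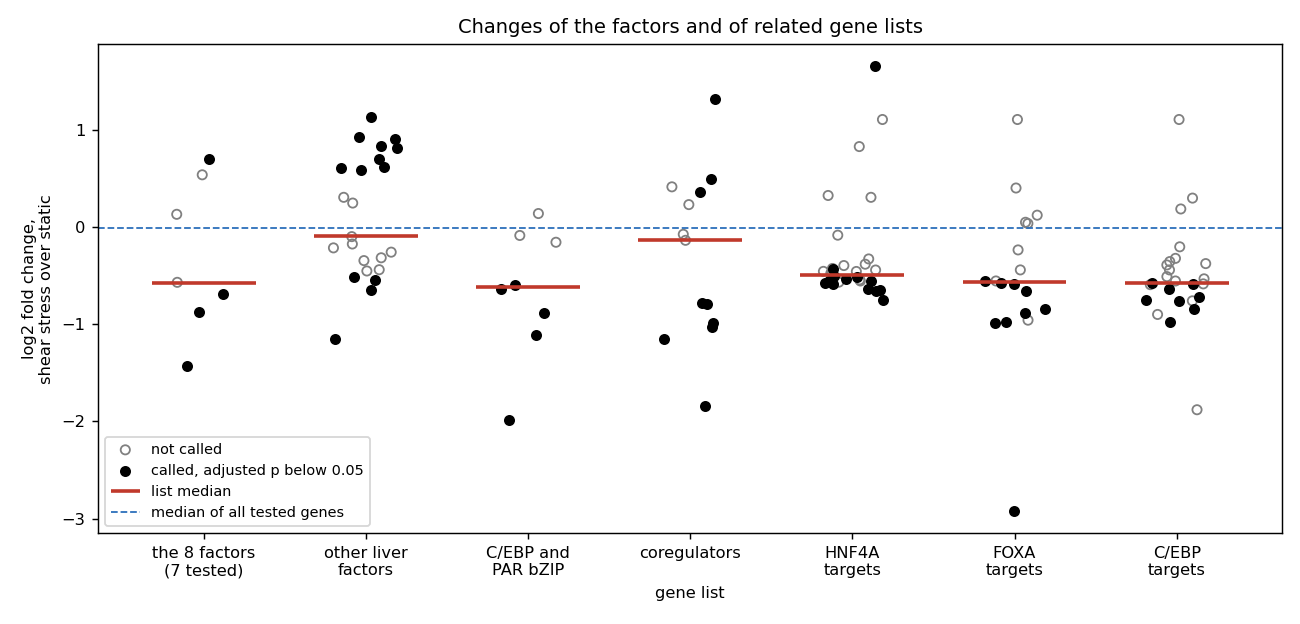
Log2 fold change of shear stress over static (vertical axis) of the tested genes in each list (horizontal axis); filled points were called, open points were not, red bars are list medians and the dashed line is the median of all tested genes. The 3 target lists have medians between -0.57 and -0.49, and the other liver factors lie on both sides of the dashed line.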

How the data were processed

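RNA of 4 shear stress and 4 static hepatocyte libraries was sequenced. Per the labels' protocols, RNA was extracted with TRIzol and libraries were made with phi29. The submitters' processing notes name HISAT, Bowtie2, RSEM and mm10 (GRCm38). Tool versions, gene annotation and strand setting are not given there. The authors deposited, per gene, expected counts (estimated, between 9.31% and 10.7% not whole within 1e-09) and TPM, per the file headers. FPKM was not used.

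Groups and replicate numbers came from the sample titles. Counts were rounded, filtered with filterByExpr (17276 to 11747 genes), scaled with TMM and tested with edgeR 4.0.16 (robust quasi-likelihood F test, R 4.3.3). SE is the log2 fold change over the square root of F. Alternatives were other scalings, no filter, DESeq2 1.42.0, limma 3.58.1 on log2(TPM + 1) and log2(TPM + 0.1) for genes with a mean of at least 1 TPM, a replicate block, and leaving out libraries. The procedure was tested on simulated data. The members, gene lists, motifs and naming rule were chosen with earlier results of these data known. The rule names up to 4 called genes per list by smallest p. 1 gene that it names is not reported here. It also names, for each member, the 2 genes with the nearest profile; these are not given for Onecut1, because of its low counts.

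Same-numbered libraries deviated together from their group means (r = 0.682, 0.643, 0.564 and 0.471 over 8446 genes; at most -0.0188 between different numbers), so the numbers pair the libraries. Blocked values stand beside the calls and counts that they alter, and beside Hnf4a, whose call they do not alter. No 2 libraries of a group agreed within counting noise.

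Sequences and positions are from RefSeq (GRCm38.p6), in which all 8 genes matched. Gene overlaps are from GENCODE vM21. The genes Hnf4aos, Prox1os, Gm28172 and Gm45091, which overlap Hnf4a, Prox1 and Cebpa on the other strand, were not analysed here, and without the strand setting their reads cannot be told apart.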

Additional observations from a re-analysis of the deposited data

Results flagged for a closer look

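In 16 groups of 4 libraries (8 genes in each condition), the gap between the most extreme library and its neighbour was compared with the range of the group on the log2 CPM scale. Chance flags about 1 in 20 such groups. For Prox1 in static culture the gap was 0.932 of the range, above the 95% critical value of Dixon's gap test: static replicate 3 was at 55 CPM and the others between 26.3 and 27.7 CPM. For Foxa2 in static culture it was 0.848 of the range, with static replicate 3 at 34.0 CPM and the others between 20.8 and 22.4 CPM. Without that library the change of Foxa2 was -0.50 (adjusted p = 0.0303 with edgeR) and that of Prox1 0.87 (adjusted p = 0.00296).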

How the results depend on the processing

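No member changed direction with a call in any of the 21 alternatives. Members called higher numbered 1 with TMM factors and 2 with upper quartile factors, library totals, the replicate block or limma on log2(TPM + 1) or log2(TPM + 0.1), and 3 with the replicate block and library totals. They numbered between 1 and 2 when 1 library was left out, and between 2 and 3 in the blocked fit without each number in turn. Members called lower numbered between 2 and 4 in all of these settings. Over all genes, 1539 were called lower with library totals, 1184 and 1178 with limma on log2(TPM + 1) and log2(TPM + 0.1), and 5080 were called higher with the replicate block and library totals. Leaving out 1 library gave between 2436 and 2841 higher and between 2224 and 2681 lower genes. The replicate block called 3531 genes higher and 3645 lower. Besides Cebpa and Prox1, it changed no call of a member. DESeq2 called 1 member higher and 4 lower, Cebpa being the added one (adjusted p = 0.0471). Onecut1 entered only the fit without a filter (-0.25 ± 0.54, adjusted p = 0.747). Depth limits Onecut1 alone among the members, since the others had at least 141 estimated counts in every library.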

Other observations

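Genes of fetal or biliary identity, a list of 12, were mostly absent. Of the 4 tested, edgeR called 0 (1 at an unadjusted p below 0.05), and DESeq2 also called 0. The replicate block called 2 higher, Epcam (0.812 ± 0.379 TPM under shear stress and 0.332 ± 0.147 TPM in static culture) and Spp1, both close to the threshold (adjusted p = 0.0499 and 0.0467). The blocked call of Epcam was lost without number 2, 3 or 4 (adjusted p between 0.141 and 0.15) and that of Spp1 without number 1 or 4 (0.129 and 0.127). Spp1, the osteopontin gene, varied widely between replicate numbers, from 228.53 to 1929.93 TPM under shear stress and from 65.34 to 1290.75 TPM in static culture. Afp, the fetal albumin gene, was at 6.42 ± 0.561 TPM under shear stress and 5 ± 0.815 TPM in static culture (0.13 ± 0.17, adjusted p = 0.564).

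The genes whose profile over the 8 libraries lay nearest to that of each factor were found among 9173 genes averaging 5 CPM or more, by the root mean square difference of centred log2 CPM. For Foxa1 these were Zrsr1 (0.142) and Cpeb3 (0.148), for Foxa2 Crem (0.101) and Atg14 (0.112), and for Foxa3 Fbxl12 (0.114) and Htra2 (0.116). For Cebpb they were Cdc42ep1 (0.133) and AI182371 (0.134), for Cebpa Slc25a51 (0.127) and Tdrp (0.139), and for Hnf4a Sec61g (0.109) and Cdk5rap3 (0.111). For Prox1 they were Fbxl12 (0.166) and the forkhead gene Foxo1 (0.183), which was at 23.0 ± 2.47 CPM under shear stress and 15 ± 4.25 CPM in static culture (0.63 ± 0.19, adjusted p = 0.019).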
